A study of Mus musculus with 2 samples.

Results

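Regulatory T cells are a branch of CD4+ T cells that restrain other immune cells, and the genes described here are Foxp3, which defines them, 5 receptors (Il2ra, Ctla4, Icos, Tnfrsf4 and Tnfrsf18) and a transcription factor (Ikzf2) that accompany it, and the cytokine gene Il10. The 8 genes were taken by name from a single-cell cDNA matrix of mouse ear skin, in which all 8 had a row among 35208 gene rows. They were followed mainly in T cells, taken as cells in which reads of the CD3 genes Cd3e, Cd3g and Cd3d together reached 100 CPM, counts per 1000000 reads of the cell. This gate held 364 of the 7118 cells that could be given to a group. Il10 was followed in macrophages as well, of which there were 1253.

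The cells came from mice with IgE-mediated chronic allergic inflammation, a skin reaction in which eosinophils, basophils and monocytes enter the ear over several days. WT and Ccr2-/- mice, both of the BALB/c strain and the second without the receptor that blood monocytes use to enter tissue, were all given 300 µg of IgE against the hapten TNP, were challenged in the ear skin with 10 µg of TNP coupled to ovalbumin, and were sampled on day 3 or day 5. The 4 groups (WT on day 3 and day 5, and Ccr2-/- on day 3 and day 5) were each marked with a hashtag antibody, mixed, and loaded as 10000 cells into a microwell device from which 1 cDNA library and 1 hashtag library were made by TAS-Seq. Values given in fours follow these groups, WT before Ccr2-/- and day 3 before day 5. Each group was thus 1 pool, with the number of mice not stated, and there was no group without challenge. Ccr2 was deleted in every cell of the Ccr2-/- mice, so genotype differences in T cells cannot be told apart into an effect within T cells and an effect of the altered monocyte supply.

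FOXP3 is the transcription factor that sets up and maintains the regulatory T cell programme, and mice without it develop fatal autoimmunity. Regulatory T cells take up IL-2 through the high-affinity receptor subunit CD25 (encoded by Il2ra), remove the costimulatory ligands CD80 and CD86 from dendritic cells through CTLA-4, and carry the costimulatory receptors ICOS, OX40 (Tnfrsf4) and GITR (Tnfrsf18). Ikzf2 encodes Helios, a zinc finger factor of many thymus-derived regulatory T cells. IL-10 is an anti-inflammatory cytokine that T cells, macrophages and other cells can make. In skin, regulatory T cells are a resident population of memory type.

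The labels were checked first with Ccr2. In T cells it was at 862 and 975 CPM in the WT pools of day 3 and day 5 and at 70.1 and 92.9 CPM in the Ccr2-/- pools. In macrophages it was at 954, 714, 96.9 and 90.9 CPM in the same order, so Ccr2 followed the genotype of the hashtag in both gates. The study reported fewer monocytes and monocyte-derived macrophages in Ccr2-/- skin. The macrophage values cannot tell that change in cells apart from the genotype. The T gate took in 65, 27, 141 and 131 cells of the 4 groups, with a median of 12599, 24941, 16334 and 14303 reads per cell. The T cell receptor gene Trac was read in 141 of the 364 cells and Cd4 in 42. Of the 364, 214 also passed the gate of another cell type. The cells past the neutrophil gate numbered 99 (27.2%), those past the endothelial gate 45 and those past the macrophage gate 39. Summed over the T cells of a pool, the neutrophil genes Retnlg, Cxcr2 and Csf3r ranged from 113 to 1523 CPM, and the mast cell genes Mcpt4, Cma1 and Tpsb2 from 17.3 to 46.4 CPM apart from 11338 CPM in Ccr2-/- day 3. Such reads enlarge the denominator of a CPM value, and the main results are therefore also given for the 150 T cells that passed no other gate.

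By the GENCODE M21 annotation (build GRCm38), Foxp3 lies on the X chromosome (chrX:7573644-7595245, + strand) and Il2ra on chromosome 2 (chr2:11642807-11693193, +). Ctla4 (chr1:60887000-60915832, +) and Icos (chr1:60977927-61000320, +) are neighbours on chromosome 1, which also holds Ikzf2 (chr1:69531214-69687245, - strand) and Il10 (chr1:131019845-131024974, +). Tnfrsf4 (chr4:156013843-156016612, +) and Tnfrsf18 (chr4:156026164-156028895, +) are neighbours on chromosome 4. The RNA gene Flicr (chrX:7573600-7581027, +) overlaps the 5′ part of Foxp3 on the same strand and has a row of its own. It had 28 reads in 3 T cells, all of them Foxp3-positive, so reads of the overlap can have been given to either gene.

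The promoters of Foxp3, Ctla4 and Il2ra are shown as the 250 bases before the RefSeq start of each on GRCm38.p6. RefSeq windows matched 5 of the 8 genes with 6 windows in all, of which the 3 without annotated UTR bases are printed. Capitals mark matches to a searched motif, on either strand. The windows are chrX:7580233-7580482 (+ strand), chr1:60908775-60909024 (+) and chr2:11642542-11642791 (+), and the first 2 lie inside the longer GENCODE span of their gene.
Foxp3: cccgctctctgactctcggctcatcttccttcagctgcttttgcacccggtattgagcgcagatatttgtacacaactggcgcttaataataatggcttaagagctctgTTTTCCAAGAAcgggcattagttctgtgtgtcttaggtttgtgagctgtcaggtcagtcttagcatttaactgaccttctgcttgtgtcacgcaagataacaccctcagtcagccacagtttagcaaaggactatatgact
Ctla4: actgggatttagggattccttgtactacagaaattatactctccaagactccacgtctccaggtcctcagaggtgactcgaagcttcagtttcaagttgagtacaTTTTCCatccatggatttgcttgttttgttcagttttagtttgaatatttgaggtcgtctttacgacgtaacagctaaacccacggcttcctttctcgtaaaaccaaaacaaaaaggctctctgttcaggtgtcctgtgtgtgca
Il2ra: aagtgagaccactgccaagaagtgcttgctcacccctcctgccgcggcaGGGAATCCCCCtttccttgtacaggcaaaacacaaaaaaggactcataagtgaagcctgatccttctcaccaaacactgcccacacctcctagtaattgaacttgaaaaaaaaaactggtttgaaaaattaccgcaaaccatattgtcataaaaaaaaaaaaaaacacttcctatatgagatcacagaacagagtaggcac
The Foxp3 capitals hold an NFAT motif (GGAAAA, here on the minus strand) 141 bases before the start and a STAT motif (TTCNNNGAA) that overlaps it. The Ctla4 capitals are an NFAT motif 145 bases before the start, and the Il2ra capitals are overlapping matches to the NF-kappaB motif 201 and 200 bases before it. Of the 6 windows, 3 held the NFAT motif (Foxp3, Ctla4 and Tnfrsf18), against 20.4% of all 32851 RefSeq windows of this length, 2 held the STAT motif (Foxp3 and Tnfrsf18), against 7.02%, and 1 held the NF-kappaB motif, against 7.25%. None of the 6 held the forkhead motif TGTTTAC (3.17% of all windows), the AP-1 motif TGANTCA (6.75%) or the RUNX motif TGTGGT (14%). A match gives letters in a window and no binding.

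Foxp3 was read in 51 of the 364 T cells (14%, exact binomial 95% interval 10.6 to 18). A Foxp3-positive cell is a T cell with at least 1 Foxp3 read. The WT day 3 pool had 17 of 65 T cells positive (26.2%, 16 to 38.5), WT day 5 had 3 of 27 (11.1%, 2.35 to 29.2), Ccr2-/- day 3 had 17 of 141 (12.1%, 7.18 to 18.6) and Ccr2-/- day 5 had 14 of 131 (10.7%, 5.97 to 17.3). WT day 3 was the highest and the other 3 pools lay between 10.7% and 12.1%, and the interval of WT day 3 overlapped those of the other 3. Averaged over days, WT pools had 18.6% and Ccr2-/- pools 11.4%, which differed by -7.26 points (exact two-sided permutation test over the 4 pools, p = 0.67). Without the WT day 3 pool the difference was 0.261 points. Day 5 minus day 3 was -8.21 points (19.1% and 10.9%, exact permutation p = 0.33), which is the smallest p that 6 splits of the pools allow.

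The share depended little on depth. With each T cell thinned to 10000 reads, which left out 18, 3, 34 and 41 shallower cells, the shares were 29.8%, 12.5%, 12.1% and 14.4%. Fibroblasts, which should lack Foxp3, had a Foxp3 read in 0.627% of cells at a median of 91886 reads per cell, against 14992 in T cells, and in 0% to 0.119% of cells once thinned. With 3 reads as the limit the T cell shares were 23.1%, 11.1%, 11.3% and 10.7%. Among T cells that passed no other gate they were 33.3%, 20%, 19.6% and 14.6%, higher in each pool than over all T cells, with WT day 3 again the highest.

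**Figure D1:**
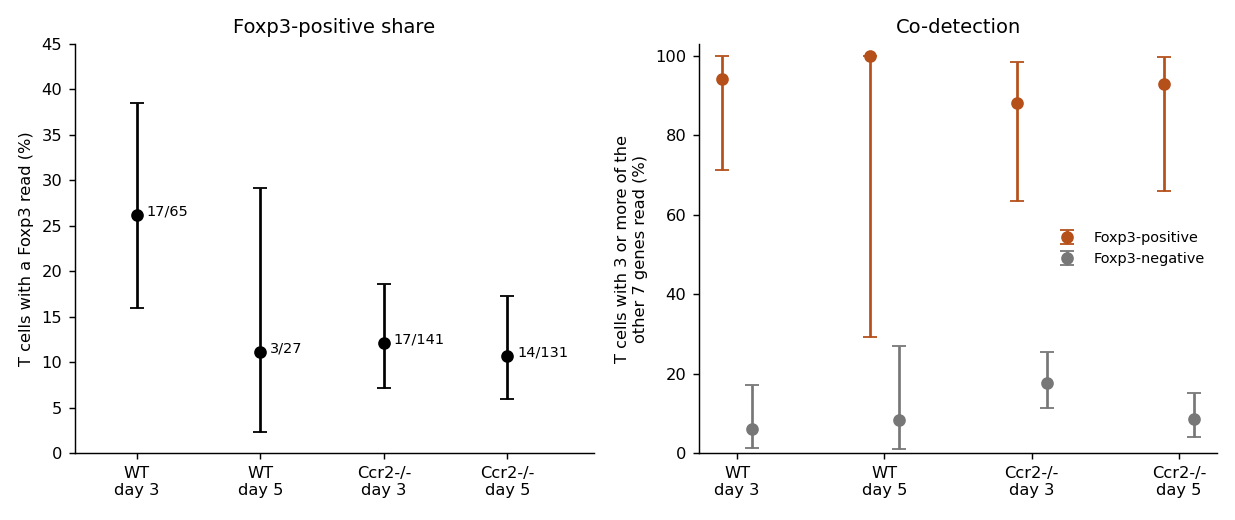
Left, share of gated T cells with at least 1 Foxp3 read (%) in each pool, with the cells behind it; right, share of Foxp3-positive (orange) and Foxp3-negative (grey) T cells in which 3 or more of the other 7 genes were read (%). Bars are exact binomial 95% intervals: on the left WT day 3 is highest at 26.2% with overlapping intervals, and on the right the positive cells lie at 88.2% or above in each pool and the negative cells at 17.7% or below.

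Foxp3 reads were concentrated in T cells. Of 1172 Foxp3 reads in all kept cells, 976 (83.3%) were in T cells, where a positive cell had a median of 861 CPM (67.4 to 4761). Outside the T gate 27 cells had 196 reads, and 11 of them had 3 or more. The innate lymphoid gate held 3 such cells with 67 reads, endothelial cells 3 with 46, cells in no gate 3 with 59, macrophages 3 with 5 and fibroblasts 15 with 19. Foxp3 had 0 reads in 225 NK cells, which allows a share of up to 1.33%, and 0 in 1267 neutrophils, 142 dendritic cells, 118 mast cells and 135 basophils.

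In summed T cell reads, Foxp3 was at 236 CPM (exact Poisson 95% interval 210 to 263) in WT day 3, 43.8 (31 to 60.1) in WT day 5, 105 (94.3 to 116) in Ccr2-/- day 3 and 109 (96.3 to 123) in Ccr2-/- day 5. WT day 3 was the highest and WT day 5 the lowest pool, and the intervals of the 2 Ccr2-/- pools overlapped. In WT day 5, 68.4% of the Foxp3 reads came from 1 cell. Reads are not molecules here, so the intervals and floors cover counting error only and leave out PCR copies and differences between mice.

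The receptor for IL-2 and the inhibitory receptor came next. Il2ra, the subunit that gives the IL-2 receptor its high affinity, was at 375 CPM (343 to 410), 110 (88.6 to 134), 286 (269 to 305) and 163 (148 to 180), with reads in 17, 6, 39 and 18 cells. Both day 3 pools were above both day 5 pools and no intervals overlapped. Ctla4, which competes with CD28 for CD80 and CD86, was at 847 (798 to 899), 197 (169 to 229), 331 (312.1 to 350) and 438 (412 to 465) CPM, in 22, 5, 37 and 27 cells. It was lower on day 5 in WT and higher on day 5 in Ccr2-/-, with intervals that did not overlap. As the mean of the CPM of single cells, however, the 4 Ctla4 values were 1149, 314.1, 486 and 368, lower on day 5 in both genotypes. In Ccr2-/- day 5, 22.8% of the summed Ctla4 reads came from 1 cell.

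The costimulatory receptors did not share 1 pattern. Icos, whose product binds ICOS ligand on antigen-presenting cells, was at 578 CPM (538 to 621) in WT day 3, 520 (473 to 570) in WT day 5, 398 (377 to 419) in Ccr2-/- day 3 and 385 (361 to 411) in Ccr2-/- day 5. Both WT pools were above both Ccr2-/- pools, and within a genotype the intervals of the 2 days overlapped. Tnfrsf4 (OX40) was at 108 (90.5 to 127), 20.8 (12.3 to 32.8), 53.5 (46.1 to 61.8) and 24.1 (18.3 to 31.1) CPM in 11, 3, 13 and 9 cells, higher on day 3 than on day 5 in each genotype by intervals that did not overlap. Tnfrsf18 (GITR) was at 195 (172 to 221), 115 (93.8 to 140), 95.6 (85.6 to 106) and 149 (134 to 166) CPM, lower on day 5 in WT and higher on day 5 in Ccr2-/-. As a mean over single cells Tnfrsf18 was at 195, 197, 141 and 151 CPM, without the WT difference.

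Of the last 2 genes, Ikzf2 was found in all pools and Il10 in few cells. Ikzf2, which encodes Helios, was at 215 (191 to 242), 141 (117 to 168), 151 (139 to 165) and 159 (144 to 176) CPM, in 26.2%, 18.5%, 24.8% and 16% of T cells, with overlapping intervals between all pools but WT day 3. The cytokine gene Il10 had 8, 9, 119 and 164 reads in 2, 1, 8 and 8 cells, which gave 6.1 (2.63 to 12), 10.4 (4.75 to 19.7), 34.1 (28.2 to 40.8) and 68 (58 to 79.3) CPM. The 2 Ccr2-/- pools were above the 2 WT pools, but 1 cell gave 67.2% of the reads of Ccr2-/- day 3 and another gave 42.7% of those of Ccr2-/- day 5, and over T cells that passed no other gate the values were 14.8, 45.6, 26 and 28.3 CPM. The Il10 share of T cells (5.22%) was not above that of fibroblasts (5.93%) without thinning. At 10000 reads per cell it was 4.17% to 7.78% in T cells over the pools and 0.595% to 0.968% in fibroblasts.

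**Figure D2:**
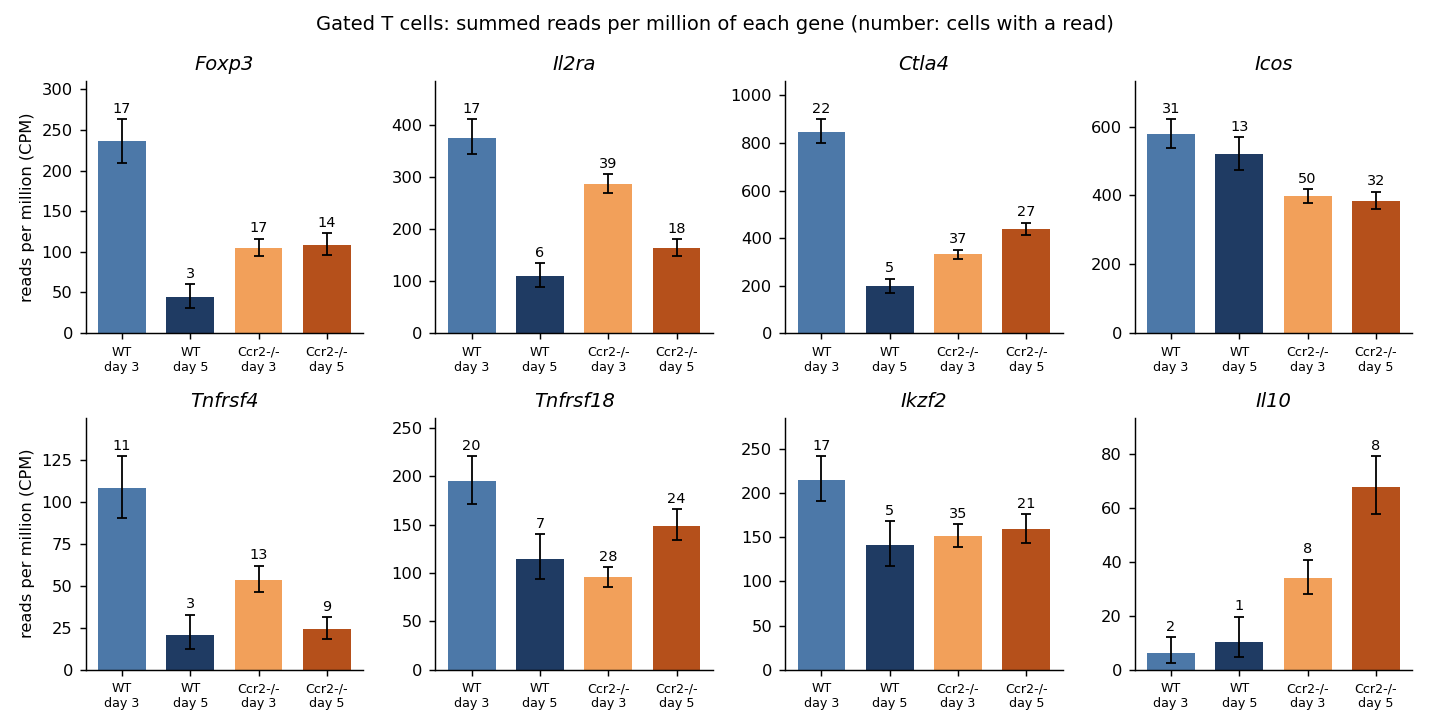
Summed CPM of each of the 8 genes in gated T cells of the 4 pools, on axes that start at 0 and differ between genes; bars over the columns are exact Poisson 95% intervals of counting error and the number is the count of cells with a read. The 7 genes other than Il10 are highest in WT day 3, Icos with an interval that overlaps that of WT day 5, and Il10 rests on 1 to 8 cells in each pool.

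Each genotype had 1 pool on a day, so no gene could be tested within a day. With day and genotype in 1 additive model over the 4 T cell sums (edgeR, 1 residual degree of freedom), 0 of 8 genes were called between genotypes, beside a background of 0% of 11766 genes tested (adjusted p under 0.05 by Benjamini-Hochberg). By an unadjusted p under 0.05, 556 of all genes passed, and DESeq2 called 75. Il10 had the lowest adjusted p, with a log2 difference (Ccr2-/- minus WT) of 2.63 (SE 0.86, adjusted p = 0.852) from the few cells above, and of 0.12 (SE 2.13) without the barcodes past 2 or more gates. Between days 0 of 8 were called, again beside 0% of all genes (287 by unadjusted p, 11 by DESeq2), with log2 differences (day 5 minus day 3) of -1.68 for Tnfrsf4 and -1.23 for Il2ra. No alternative called any of the 8 in either comparison. The median log2 difference of the 8 was -0.10 between genotypes and -0.50 between days, beside 0.10 and -0.06 over all genes tested.

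Over T cells that passed no other gate, the levels of the 7 genes other than Il10 were higher in all 4 pools and the order of the pools changed for some. Il10, given above, was lower in both Ccr2-/- pools and higher in both WT pools than over all T cells. Foxp3 was at 416, 60.8, 208 and 169 CPM, Ctla4 at 1493, 385, 524 and 831 CPM and Il2ra at 566, 233, 712 and 324 CPM in the 36, 10, 56 and 48 such cells. Il2ra was then highest in Ccr2-/- day 3 rather than in WT day 3. Foxp3 and Ctla4 kept WT day 3 as the highest and WT day 5 as the lowest pool. For Ikzf2 the values were 259, 193, 262 and 313.8 CPM, with Ccr2-/- day 5 the highest.

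The other 7 genes were found together in the cells with a Foxp3 read. Of the 51 Foxp3-positive T cells, 47 (92.2%, 81.1 to 97.8) had reads of 3 or more of the other 7 genes, against 37 of the other, Foxp3-negative T cells (11.8%, 8.46 to 15.9). By pool these were 16 of 17, 3 of 3, 15 of 17 and 13 of 14 positive cells, and 6.25%, 8.33%, 17.7% and 8.55% of negative cells. The intervals of the shares of positive and negative cells did not overlap in any pool, although each pool had negative cells with 3 or more of the genes (3, 2, 22 and 10 cells). The median number of the 7 genes read was 5 in positive and 0 in negative cells, no positive cell lacked all 7, and 169 negative cells did. Depth was alike, with a median of 15552 reads in positive and 14857 in negative cells. Among T cells that passed no other gate the shares were 30 of 32 (93.8%, 79.2 to 99.2) and 25 of 118 (21.2%, 14.2 to 29.7).

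Ctla4 was read in nearly all of these cells, and Il10 in few. Of the 51 positive cells 49 had a Ctla4 read (96.1%, 86.5 to 99.5), against 42 negative cells (13.4%). Icos was read in 43 (84.3%) against 26.5% of negative cells, Il2ra in 36 (70.6%) against 14.1%, Ikzf2 in 35 (68.6%) against 13.7%, Tnfrsf18 in 34 (66.7%) against 14.4% and Tnfrsf4 in 29 (56.9%) against 2.24%. Only 7 negative cells held a read of Tnfrsf4. Il10 was read in 5 positive cells (9.8%, 3.26 to 21.4) and 14 negative cells (4.47%, 2.47 to 7.39), with intervals that overlapped.

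These genes were then compared as levels, with the reads of positive and negative T cells summed in each pool and the pool kept as a block (edgeR, 8 sums). Foxp3 itself divided the cells and is not a result. Of the other 7 genes 6 were higher in Foxp3-positive T cells, against a background of 0.171% of 9939 genes called higher (17 genes) and 1.61% called lower (160 genes). In total 1.78% of genes were called. The median log2 difference over all genes was -0.76, against 3.15 for the 7. With library size alone as scaling the median over all genes was -0.54 and the split was 37 higher and 144 lower, and the same 6 genes were called.

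Tnfrsf4 had the largest difference of the 7, followed by the inhibitory and IL-2 receptors. Tnfrsf4 was at 2.42, 0, 3.14 and 1.94 CPM in negative and 287, 307, 569 and 154 CPM in positive cells, a log2 difference of 7.05 (SE 0.95, adjusted p = 5.6e-11 by edgeR). Ctla4 was at 249, 77.9, 127 and 210 CPM in negative and 1866, 1845, 2415 and 1777 CPM in positive cells (log2 difference 3.41, SE 0.45, adjusted p = 1.49e-11). The positive cells of the 4 pools were thus close to each other in Ctla4 although the T cell sums of the pools were not. Il2ra was at 39.9, 91.5, 113 and 68.4 CPM in negative and 946, 359, 2058 and 723 CPM in positive cells (3.31, SE 0.55, adjusted p = 5.84e-07).

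Ikzf2, Tnfrsf18 and Icos differed less. Ikzf2 was at 27.8, 50.7, 105 and 104 CPM in negative and 534, 1384, 624 and 483 CPM in positive cells (log2 difference 3.15, SE 0.60, adjusted p = 3.13e-05). Tnfrsf18 was at 44.8, 87.8, 46.5 and 109 CPM in negative and 452, 495, 598 and 386 CPM in positive cells (2.55, SE 0.64, adjusted p = 0.00622). Icos was at 267, 381, 348 and 300 CPM in negative and 1107, 2443, 910 and 885 CPM in positive cells (1.63, SE 0.45, adjusted p = 0.0198), so that Icos was also present in the Foxp3-negative sums of every pool. All 6 were higher in the positive cells of all 4 pools, with no overlap between the 4 positive and the 4 negative sums.

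Il10 did not pass. It was at 1.21, 0, 36.8 and 40.3 CPM in negative and 14.4, 154, 6.43 and 231 CPM in positive cells (log2 difference 2.52, SE 1.43, adjusted p = 0.593), higher in positive cells of 3 pools and lower in Ccr2-/- day 3. The 5 positive cells held 99 Il10 reads, 70.7% of them in 1 cell.

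The call of Icos was the least stable. It was lost without the barcodes past 2 or more gates (log2 difference 0.85, adjusted p = 0.656), with T and macrophage gates of 300 CPM (1.22, adjusted p = 0.0882) and without each of the 4 pools in turn (1.53 to 1.77, adjusted p = 0.0779 to 0.23). Tnfrsf18 lost its call without the multiply gated barcodes (2.22, adjusted p = 0.113), without WT day 3 (2.31, 0.131) and without Ccr2-/- day 3 (2.21, 0.309), and Ikzf2 without the multiply gated barcodes (1.88, 0.245). Il2ra, Ctla4 and Tnfrsf4 kept theirs under each alternative run.

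**Figure D3:**
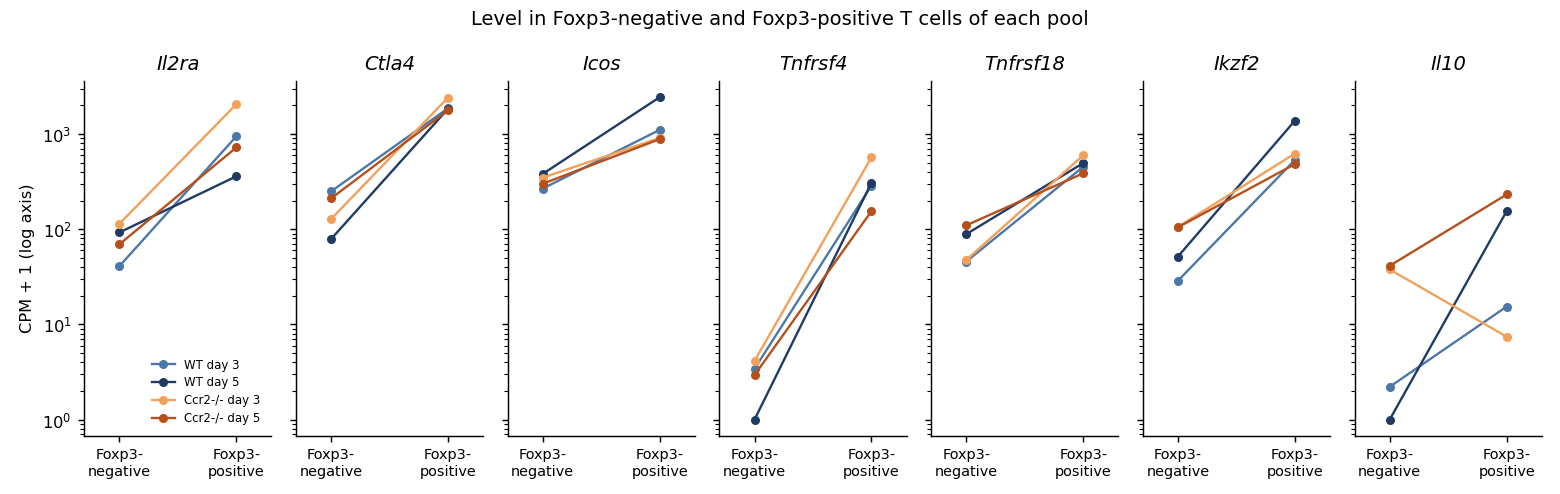
Level of 7 genes in Foxp3-negative and Foxp3-positive T cells of each pool, as summed CPM + 1 on a log axis; each line joins the 2 values of 1 pool. The lines of Il2ra, Ctla4, Icos, Tnfrsf4, Tnfrsf18 and Ikzf2 go up in all 4 pools, and that of Il10 goes down in Ccr2-/- day 3.

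Neutrophil and macrophage gates were passed more often by Foxp3-negative cells, and the endothelial and dendritic gates were not. Of the negative cells, 98 (31.3%) passed the neutrophil gate and 37 (11.8%) the macrophage gate, against 1 (1.96%) and 2 (3.92%) of the 51 Foxp3-positive cells. The summed neutrophil genes were at 9.65 to 55.7 CPM in positive and 120 to 1774 CPM in negative cells over the pools. Basophil, NK and B cell genes were at 0 reads in the positive cells of all pools, whereas 6 positive cells (11.8%) passed the dendritic and 9 (17.6%) the endothelial gate, against 11 (3.51%) and 36 (11.5%) of the negative cells. Ccr7, a gene of the dendritic gate, was at 138, 205, 99.7 and 11.4 CPM in the positive cells. It made up most of that gate's sum in each pool, which ranged from 11.4 to 205 CPM. In negative cells Ccr7 was at 145, 21, 12.9 and 49 CPM, of sums from 22.3 to 146 CPM. Whether the Ccr7 reads came from the T cells themselves was not tested. Leaving out multiply gated barcodes also removed the cells past the dendritic gate. The part of marker reads in the levels of the 7 genes was measured only by leaving out the multiply gated barcodes, as given above.

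Of 28 further genes linked to regulatory T cells, 24 could be tested and 3 were called, all higher in Foxp3-positive cells. Of the 24, 18 had a positive log2 difference, beside 24.5% of all genes, and their median was 1.23. Izumo1r, a folate receptor family gene also known as Folr4 and used as a marker of regulatory T cells, was at 2.42, 4.95, 1.89 and 9.7 CPM in negative and 163, 598, 116 and 297 CPM in positive cells (log2 difference 5.58, SE 0.94, adjusted p = 8.52e-07). Klrg1, an inhibitory receptor of differentiated T cells, was at 0, 27.2, 2.51 and 32 CPM in negative and 186, 239, 228 and 403 CPM in positive cells (4.73, SE 0.94, adjusted p = 8.35e-05). Tnfrsf9, a costimulatory receptor of activated T cells, was at 0, 0, 54.4 and 110 CPM in negative and 530, 34.2, 785 and 288 CPM in positive cells (4.25, SE 0.85, adjusted p = 0.000102).

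Several well-known genes of the list did not pass. Ikzf4, encoding the Helios relative Eos, had 0, 1.24, 14.5 and 14.1 CPM in negative and 33, 137, 164 and 71.4 CPM in positive cells (log2 difference 4.08, adjusted p = 0.0932). Maf, a transcription factor linked to Il10, had 251, 293, 187 and 253 against 652, 1571, 498 and 765 CPM (1.42, adjusted p = 0.138). Il1rl1, which encodes the IL-33 receptor, had a log2 difference of 1.78 (adjusted p = 0.183), and the inhibitory receptor gene Lag3 and the ectonucleotidase gene Entpd1 had negative ones (-3.06, adjusted p = 0.232, and -2.73, adjusted p = 0.347).

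Outside the lists, the largest differences upward included Nrn1, encoding neuritin, at 6.05, 0, 0 and 3.4 CPM in negative and 101, 393, 0 and 260 CPM in positive cells (log2 difference 5.69). In Ccr2-/- day 3 it had no read in either class of cell. Sh3bp4 was called as well, at 0, 0, 5.34 and 5.82 CPM in negative and 51.5, 102, 86.8 and 82.8 CPM in positive cells. It was higher in the positive cells of all 4 pools. Penk, which encodes the opioid precursor proenkephalin, was also called (3.27), but its values of 1.21, 26, 498 and 9.7 CPM in negative against 22.7, 393, 0 and 3022 CPM in positive cells went the other way in Ccr2-/- day 3.

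Genes that carry the IL-2 and IL-10 signals were not called. Of 15, 14 were tested and 0 passed in edgeR, with Il2rg (the common gamma chain) at a log2 difference of 1.36 (adjusted p = 0.311) and Socs3 at -1.61 (adjusted p = 0.136), and the median of the list was -0.01. Of 6 ligand and counter-receptor genes 3 were tested and 0 passed. Il2 itself, whose product regulatory T cells consume, was at 2.6 CPM in T cells and read in 4.12% of them, against 3.31 CPM and 23.4% of the deeper fibroblasts, so T cell reads of Il2 were not above the background.

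Of 17 genes of other T cell subsets tested, 4 were called, all lower in the Foxp3-positive cells, and 13 were not called. Of the 17, 3 had a positive log2 difference, against 24.5% of all genes. The list median was -4.11, or -3.75 with the 5 genes that had 0 reads in positive cells set at the bound of 3 reads. Tcf7, encoding the naive and memory T cell factor TCF-1, was at 194, 309, 140 and 261 CPM in negative and 0, 0, 9.65 and 14.3 CPM in positive cells (log2 difference -5.39, SE 0.99, adjusted p = 9.96e-06). Trdc, the constant segment of the gamma-delta T cell receptor, was called at -3.55 (SE 0.90, adjusted p = 0.00701). Cd8a had 549 reads in 13 negative cells and 0 in positive cells. Its summed level was at least 32-fold lower against a floor of 3 reads over the group. Cd163l1, a gene of gamma-delta T cells, had 946 reads in 24 negative cells and 0 in positive cells, at least 55.4-fold lower. Both bounds cover the counting error of reads only. The reads came from few negative cells, so the bounds do not hold for the share of cells, which was not tested. Cd4 had a log2 difference of 2.32 (adjusted p = 0.115) and Trac of 1.44 (adjusted p = 0.0703).

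The gamma-delta genes divided the T cells in a similar way. Of 364 T cells, 73 had at least 100 CPM of Trdc and Cd163l1 together. Foxp3 was read in 4 of these (5.48%) and in 47 of the other 291 (16.2%), and Ctla4 in 4 (5.48%) and 87 (29.9%). Il2ra went the other way, with reads in 22 of the 73 (30.1%) and 58 of the 291 (19.9%), and Ikzf2 was read in 23.3% and 21%. Il2ra and Ikzf2 were thus read at similar or higher frequency in the gamma-delta group, where Foxp3 and Ctla4 were scarce.

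Of 22 macrophage genes 17 were tested in the same fit and 4 were called, all lower in Foxp3-positive T cells. Il1b, the interleukin-1 beta gene, was at 852, 704, 1550 and 6288 CPM in negative and 37.1, 0, 28.9 and 22.9 CPM in positive cells (log2 difference -6.39, SE 0.51, adjusted p = 1.88e-32). Il6 (-5.36), the MHC class II gene H2-Ab1 (-4.12) and Ly6c2 (-3.36) were the others. Ly6c2 was at 422, 97.7, 47.4 and 78.6 CPM in negative and 398, 0, 3.22 and 0 CPM in positive cells, so that WT day 3 hardly differed. Neutrophil and macrophage marker reads were also mostly higher in the Foxp3-negative cells, as given above, and their part in these 4 differences was not tested.

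Across the whole preparation, 7 of the 8 genes were higher in T cells than in the sum of all other gated cells of the same pool (edgeR, pool as block, 8 sums). Over all genes 3.24% of 20862 were called higher and 5.79% lower, 9.03% in total, with 676 higher and 1208 lower, or 839 higher and 915 lower with library size alone. Foxp3 had the largest log2 difference at 8.58 (SE 0.49, adjusted p = 3.28e-05), with 0.107 to 0.512 CPM outside T cells. Il2ra (7.17), Ctla4 (6.65), Icos (6.37), Tnfrsf4 (5.85), Tnfrsf18 (4.68) and Ikzf2 (4.48) followed. Outside T cells Tnfrsf18 was at 3.73 to 5.52 CPM and Ikzf2 at 5.89 to 6.94 CPM. Il10 was not called (-0.30, SE 1.12, adjusted p = 0.908). It was at 36.3, 69.5, 15.5 and 5.53 CPM outside T cells and 6.1, 10.4, 34.1 and 68 CPM in them, lower in T cells of both WT pools and higher in T cells of both Ccr2-/- pools. In the same fit 17 of the 28 further regulatory T cell genes were higher in T cells and 1, Nrp1, was lower.

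Reads of several of these genes came from other gated cells. T cells held 69.7% of all Il2ra reads, 57.5% of Ctla4, 49.5% of Icos, 47.5% of Tnfrsf4, 29.7% of Tnfrsf18 and 29.5% of Ikzf2 reads. NK cells, a lymphocyte without CD3, had Ctla4 reads in 66 of 225 cells (29.3%, 161 CPM), Icos in 53 (23.6%, 86.4 CPM) and Tnfrsf18 in 75 (33.3%, 98.9 CPM), with Foxp3 at 0. Ctla4 in NK cells was at 53.4, 67, 193 and 219 CPM, higher in both Ccr2-/- pools by counting intervals. The 20 cells of the innate lymphoid gate, which were without CD3 but had Il7r with Thy1 or Gata3, had Icos in 15, Tnfrsf18 in 14, Il2ra in 11, Ctla4 in 3 and Foxp3 in 3 cells. In keratinocytes Tnfrsf18 was read in 37 of 78 cells (47.4%, 43.4 CPM), at a median depth of 70628 reads.

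**Figure D4:**
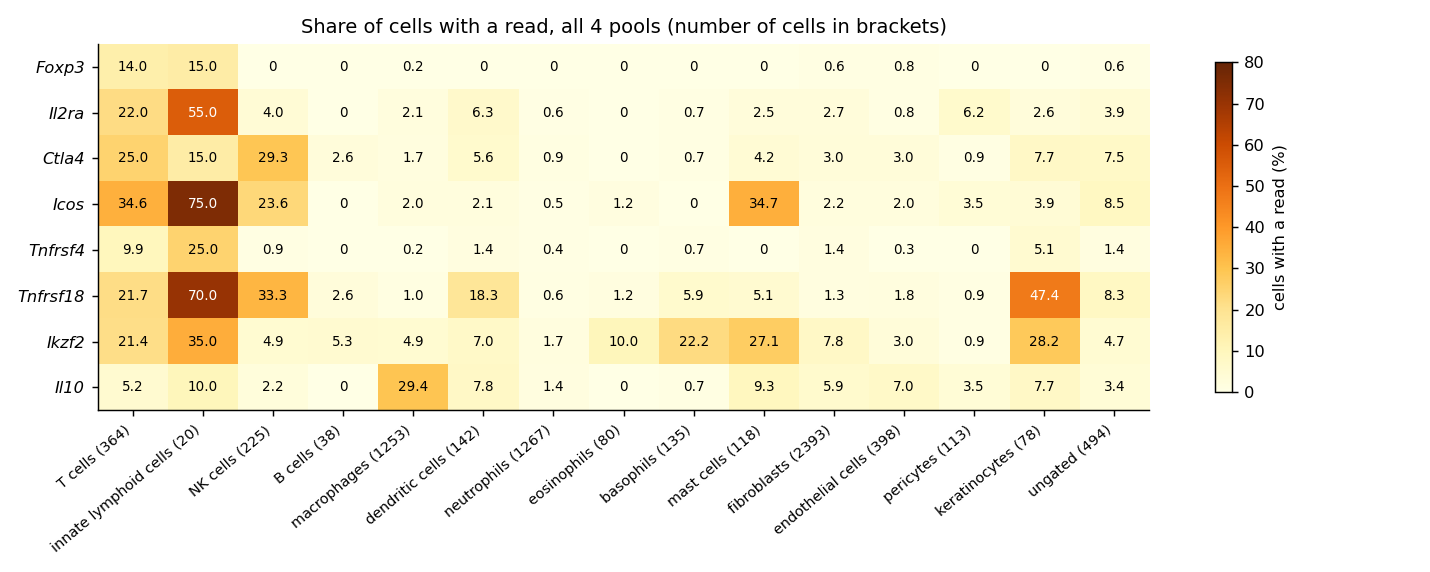
Share of cells with at least 1 read (%) of each of the 8 genes (rows) in each gated cell type, all 4 pools together (columns, number of cells in brackets); darker is higher. The T cell column is filled throughout, Il10 is highest in macrophages at 29.4%, and Foxp3 is at 15% of 20 innate lymphoid cells, 14% of T cells and under 1% of the other classes.

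Il10 came mostly from macrophages. Of 11289 Il10 reads in all kept cells 9685 (85.8%) were in macrophages and 300 (2.66%) in T cells. It was read in 145, 140, 52 and 32 macrophages, or 28.9%, 31%, 34.2% and 21.5% of the 501, 451, 152 and 149 macrophages. The intervals of these shares overlapped for all neighbours in the order from Ccr2-/- day 5 up to Ccr2-/- day 3. Thinned to 10000 reads the shares were 21%, 23.8%, 29.5% and 20.4%, against 0.595% to 0.968% of fibroblasts.

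As levels, Il10 in macrophages was at 96.4 CPM (92.9 to 100) in WT day 3, 165 (160 to 170) in WT day 5, 174 (166 to 182) in Ccr2-/- day 3 and 63.2 (58.1 to 68.7) in Ccr2-/- day 5. WT day 5 and Ccr2-/- day 3 had overlapping intervals and lay above the other pools. From day 3 to day 5 the values thus went up in WT and down in Ccr2-/-. No cell gave more than 11.3% of the reads of its pool. Changes within a genotype could not be tested with 1 pool per group. The additive model over the 4 macrophage sums tested genotype averaged over days and day averaged over genotypes, and called Il10 in neither. Between genotypes Il10 had a log2 difference of -0.23 (adjusted p = 0.901 by edgeR), beside 0.012% of 16666 genes called, 0.006% higher and 0.006% lower, namely Ccr2 itself (-3.11, SE 0.18, adjusted p = 0.0469) and Cyp26b1, a retinoic acid degrading enzyme, which had 42.3 and 22.9 CPM in the WT pools, 502 and 384 CPM in the Ccr2-/- pools (3.84, SE 0.21, adjusted p = 0.0469). Cyp26b1 is named because it was the only other gene called. Neither call held at a hashtag ratio of 10, where 0 genes were called by edgeR, and DESeq2 called 469. Between days Il10 had a log2 difference of -0.33 (adjusted p = 0.934), beside 0% of genes called (0 by edgeR, 1131 by unadjusted p, 74 by DESeq2).

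**Figure D5:**
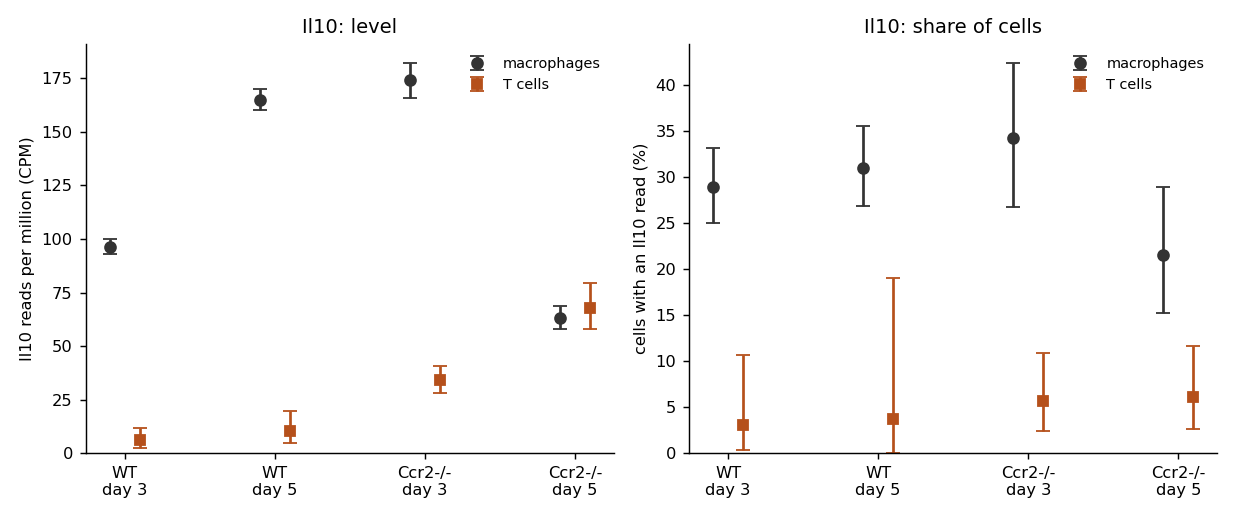
Il10 in gated macrophages (circles) and T cells (squares) of the 4 pools, left as summed CPM with exact Poisson 95% intervals and right as the share of cells with a read (%) with exact binomial 95% intervals. Macrophages lie at 63.2 to 174 CPM and 21.5% to 34.2%, and T cells reach the macrophage level in CPM in Ccr2-/- day 5, where their 8 positive cells hold 164 reads.

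Macrophages with and without an Il10 read were compared with the pool as a block, and the number of genes called depended on the setting. A split by at least 1 read favours deeper cells, and depth was equalised only in the thinned setting. By edgeR 0.0257% of 15536 genes were called, 4 in all, 0.0129% higher and 0.0129% lower, against 70 genes after thinning, 278 without a filter and 479 by DESeq2. Enpp2, encoding the lysophospholipase autotaxin, was at 117, 229, 187 and 310.6 CPM in Il10-negative and 303, 585, 650 and 931 CPM in Il10-positive macrophages (log2 difference 1.58, SE 0.11, adjusted p = 0.00979). Ccl8, a chemokine gene of alternatively activated skin macrophages, was at 4770, 14576, 5646 and 7127 against 8784, 20074, 10283 and 12224 CPM (0.80, SE 0.07, adjusted p = 0.0311). The 2 lower genes, named after their values were seen because they complete the 4, were Cd24a (27.9, 6.6, 99.2 and 165 against 2.18, 1.14, 12.6 and 10.4 CPM, adjusted p = 0.0279) and Napsa (139, 47.5, 57.2 and 79.8 against 46.7, 16.8, 19.1 and 24.7 CPM, adjusted p = 0.0361). None of the 4 calls withstood leaving out the barcodes past 2 or more gates, after which 0 genes were called by edgeR and 1169 had an unadjusted p under 0.05.

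Of 21 macrophage genes tested beside Il10, 0 were called (median log2 difference 0.06, beside -0.04 for all genes) by edgeR, which gave 1570 of all genes an unadjusted p under 0.05, with the DESeq2 count given above. Cd163, H2-Ab1 and Maf show the size of the differences that did not pass. Cd163, a scavenger receptor of tissue macrophages, was at 1168, 1852, 744 and 726 CPM in Il10-negative and 2374, 2291, 1838 and 2772 CPM in Il10-positive macrophages (log2 difference 1.19, adjusted p = 0.159). H2-Ab1 was at 2751, 2540, 2395 and 4076 against 1747, 1376, 392 and 1086 CPM. Maf was at 828, 967, 698 and 542 against 1356, 1193, 1085 and 1093 CPM (0.72, adjusted p = 0.142). Each was on the same side in all 4 pools. Other genes of the list did so too. Mrc1, Arg1, Il6 and Pdcd1lg2 were higher in Il10-positive macrophages of all 4 pools. Lyve1, Cd209f, C1qa, Il1b, Tnf, Ccr2 and F13a1 were lower in all 4. Il6 was at 83.1, 113, 94.5 and 55.9 against 154, 165, 124 and 219 CPM. Il1b was at 616, 658, 854 and 1461 against 353, 467, 74.8 and 328 CPM. Lyve1, a gene of resident macrophages, was at 64.2, 41.5, 319 and 274 against 31, 11.9, 118 and 109 CPM.

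Within the macrophages, cells with at least 100 CPM of Pdcd1lg2, which encodes PD-L2, had Il10 reads in 80 of 172 (46.5%, 38.9 to 54.3), against 289 of 1081 other macrophages (26.7%, 24.1 to 29.5). The shares by pool were 47.6%, 40.5%, 47.8% and 52.2% of Pdcd1lg2-high and 25.2%, 30.1%, 31.8% and 15.9% of the other macrophages. The high group was above the other in each pool, without equalising depth, which had a median of 62777 reads per cell in the high and 46750 in the other group. As levels this held in 3 pools, at 155, 136, 266 and 116 against 80.5, 168, 156 and 52.7 CPM, and in WT day 5 the order was the opposite. Macrophages with Ly6c2, a gene of classical monocytes, had Il10 reads in 29.9% and those without in 29.3%. For Lyve1, a gene of resident macrophages, the shares were 26.7% and 29.6%, and for Gpnmb 6 of 24 (25%) and 29.5%.

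The genes most like Foxp3 and Il10 were sought over 41 sums of a cell type in a pool with at least 20 cells each, from 12 cell types and 16014 genes, as Pearson correlations of log2(CPM + 1). The sums of a pool share its library, and those of a cell type share most of their genes, so the values are descriptions. Foxp3 was closest to Cd3g (0.97) and Cd3e (0.96), which the gate uses, and to Cd163l1 (0.95), Cd6 (0.94) and Trgc1 (0.94). These are T cell genes, but Cd163l1 is a gene of gamma-delta T cells and had 0 reads in Foxp3-positive cells. The cell types and not the T cell subsets thus set the pattern. Il2ra followed Foxp3 at 0.80, Tnfrsf4 at 0.77, Ctla4 at 0.68, Icos at 0.66, Tnfrsf18 at 0.48, Ikzf2 at 0.43 and Il10 at 0.22. Il10 was closest to Snx2 (0.79), Maf (0.79), Folr2 (0.77), Dnase1l1 (0.77) and Mrc1 (0.75), of which Folr2 and Mrc1 are genes of tissue macrophages.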

How the data were processed

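The deposited values are raw counts of reads per gene and cell barcode, and of reads per hashtag antibody and barcode. Per the submitters' processing notes, the authors used cutadapt and Bowtie2 with build GRCm38.p6. The counts are reads and not molecules. The cDNA matrix held 8953 barcodes and 548117598 reads, and 8696 barcodes were in both libraries. Of 13 hashtag columns, 9 were not used. Barcodes took the pool of their leading hashtag, scaled by its total, where it led the next by at least 3 times. Left out were 760 barcodes with fewer than 10 hashtag reads and 570 with several hashtags, which removes doublets between pools only, as well as those with over 20% mitochondrial reads (594 of all barcodes) or under 200 genes. No doublet caller was run.

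The 7118 kept cells, with 68064673 to 162572556 reads per pool (median 18632 to 48232 per cell), were gated on summed CPM of marker genes: T cells at 100, macrophages (Csf1r, Adgre1 and Fcgr1) at 200, neutrophils at 300, mast cells at 1000. Any cell past the T gate was a T cell. Macrophage subsets were cut at 100 CPM. Reads were summed per pool and class and tested with edgeR 4.0.16 (quasi-likelihood, TMM, filterByExpr, Benjamini-Hochberg threshold 0.05), in R 4.3.3 with limma 3.58.1 and DESeq2 1.42.0 as alternatives. The pipeline was tested on simulated data. Shares have Clopper-Pearson and CPM values exact Poisson 95% intervals, and 0 was set against 3 reads. The number of reads in a pool sets their width. Nothing states separate mice within a pool, so the spread over pools may be technical.

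The genes, gene lists and tests were chosen with earlier results of these data known. Named are the 8 genes, the called members of 5 lists (28 further regulatory T cell genes, 15 IL-2 and IL-10 signalling genes, 6 ligands and counter-receptors, 17 T cell subset genes and 22 macrophage genes), those on which a statement about a list turns, and the 10 largest called differences upward at 20 CPM or more. Alternatives were another hashtag ratio (10), leaving out multiply gated barcodes, gates of 300 CPM, 3 reads for a positive cell, thinning, scaling, filter, tool, block and leaving out each pool.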

Additional observations from a re-analysis of the deposited data

Results flagged for a closer look

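Ctla4 and Tnfrsf18 in T cells and Il10 in macrophages went opposite ways from day 3 to day 5 in the 2 genotypes, with counting intervals that did not overlap within either genotype. Each group was 1 pool, so the difference between the genotypes was not tested.

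Ctla4 in T cells was at 847 CPM in WT day 3 and 197 CPM in WT day 5, and at 331 CPM in Ccr2-/- day 3 and 438 CPM in Ccr2-/- day 5. Among T cells that passed no other gate the 4 values were 1493, 385, 524 and 831 CPM, in the same directions. As a mean of single cells they were 1149, 314.1, 486 and 368 CPM, and the Ccr2-/- direction was the opposite. In the Foxp3-positive cells alone Ctla4 was at 1866, 1845, 2415 and 1777 CPM.

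Tnfrsf18 in T cells was at 195 and 115 CPM in WT day 3 and day 5 and at 95.6 and 149 CPM in Ccr2-/- day 3 and day 5. Without the multiply gated cells it was at 303, 147, 189 and 240 CPM, and the intervals of the 2 Ccr2-/- pools (165 to 216 and 209 to 274) then overlapped. As a mean of single cells it was at 195 and 197 CPM in WT.

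Il10 in macrophages was at 96.4 and 165 CPM in WT day 3 and day 5 and at 174 and 63.2 CPM in Ccr2-/- day 3 and day 5. The shares of macrophages with an Il10 read, at 28.9%, 31%, 34.2% and 21.5%, had overlapping intervals within each genotype.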

How the results depend on the processing

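No result below has more than 4 pools behind it, reads of a cell are not molecules, and the cells that passed 2 gates were 214 of 364 T cells and 399 of 1253 macrophages. The difference in Foxp3-positive share kept its sign under each setting except without WT day 3, with a range of -14.8 to 0.261 points over the pools left out in turn. The cause of the changes listed here was not tested.

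Genes called between genotypes in T cells numbered 0, and 11 without multiply gated barcodes, 58 at gates of 300 CPM, 75 by DESeq2 and 135 without a filter. Between days they numbered 0, and 3, 15, 11 and 31 in the same order. Between Foxp3-positive and Foxp3-negative T cells 177 were called, and 52 without multiply gated barcodes, 114 at 300 CPM, 295 by DESeq2 and 78 to 130 without 1 pool (130 without WT day 3, 84 without WT day 5, 86 without Ccr2-/- day 3, 78 without Ccr2-/- day 5). For T cells against other cells 1884 were called, and 3086 without multiply gated barcodes, 4211 by DESeq2 and 1044 to 1668 without 1 pool (1044 without Ccr2-/- day 3, 1186 without Ccr2-/- day 5). In macrophages 2 were called between genotypes, and 0 at a hashtag ratio of 10, 469 by DESeq2 and 466 without a filter. Between days 0 were called, and 74 and 56 by the last 2. Between Il10-positive and Il10-negative macrophages 4 were called, and 1 at a hashtag ratio of 10, 0 without multiply gated barcodes, 2 at 300 CPM, 70 after thinning, 479 by DESeq2, 278 without a filter, 1 by limma on mean CPM and 0 to 12 without 1 pool (0 without WT day 3, 12 without WT day 5, 1 without Ccr2-/- day 3, 0 without Ccr2-/- day 5).

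The hashtag pool served as the replicate block in the comparisons within pools, since both sums of a pair come from the same pool. With no replicate block 101, 3068 and 0 genes were called in the Foxp3, T cell and Il10 comparisons. The additive models of genotype and day had no residual degree of freedom once a pool was left out, so that alternative was not run for them.

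The 8 genes changed sign in 25 of 358 alternatives, none of them called. Between genotypes in T cells Tnfrsf18 was at 0.05 and 0.07 and Ikzf2 at 0.41 without multiply gated barcodes or, for the second Tnfrsf18 value, at 300 CPM. Between days Tnfrsf18 was at -0.39, -0.36, -0.06 and -0.01 (multiply gated barcodes left out, 300 CPM, library size alone, no filter), and at 300 CPM Icos was at 0.14 and Ikzf2 at 0.03. Il10 in T cells against other cells was at 0.22 without multiply gated barcodes, 0.25 at 300 CPM and -1.57 to 0.76 over the pools left out in turn (0.72 without WT day 3, 0.76 without WT day 5). In macrophages Tnfrsf18 was at -0.07 between genotypes and 0.05 between days by DESeq2, which gave no adjusted p. Between days in macrophages Icos was at 0.01 and Ikzf2 at -0.33 without multiply gated barcodes, and Ikzf2 at -0.07 at 300 CPM. Beside Il10 in macrophages Icos was at -0.13 by limma and -0.12 (without Ccr2-/- day 3) to 1.65 (without WT day 3) over the pools left out. Ikzf2, at 0.00 beside Il10, was at -2.59 by limma, -0.05 with library size alone, -0.01 without a filter and -0.35 (without Ccr2-/- day 3) to 0.34 (without WT day 3) over the pools left out, with -0.21 without Ccr2-/- day 5.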

Other observations

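Some of the 8 genes were read in granulocytes and mast cells. Icos had reads in 41 of 118 mast cells (34.7%), with 1 of 11, 2 of 11, 23 of 53 and 15 of 43 cells and 3.4, 23.9, 177 and 147 CPM in the 4 pools. Mast cells with an Icos read had the mast cell protease genes Cma1 at 20278 and Cpa3 at 8502 CPM and Gzma, a granule protease gene of NK and T cells, at 2569 CPM, against 23694, 13375 and 554 CPM in mast cells without one. Gzma was read in 15 of the 41 (36.6%) and 21 of the 77 cells (27.3%), and 1 cell held 33.3% of the Gzma reads of the first group, so most mast cells with an Icos read had none of Gzma. Gzmb, another granule protease gene, was read in 24 of the 41 (58.5%) and 22 of the 77 cells (28.6%). Cd3d was read in 17.1% and 7.79%, and Cd3g in 0% and 1.3%. Kit was at 320 against 703 CPM and Tpsb2 at 3630 against 8966 CPM. Whether these barcodes held more than 1 cell was not tested. Ikzf2 was read in 32 of 118 mast cells (27.1%, 80.1 CPM) and in 30 of 135 basophils (22.2%, 124 CPM), at 59.5, 124 and 156 CPM in the basophils of WT day 3, Ccr2-/- day 3 and Ccr2-/- day 5, while WT day 5 had 1 basophil without a read. The share of fibroblasts with an Ikzf2 read was 7.77% at greater depth.

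Levels of the ligand genes differed between cell types and were not tested. Cd86 was at 93.3 CPM in dendritic cells (33.8% of cells) and 43.4 CPM in macrophages (24.1%), Cd80 at 96 CPM in neutrophils (14%), and Icosl, the ICOS ligand, at 56.8 CPM in dendritic cells (24.6%), 30.1 in neutrophils, 15.5 in T cells and 9.11 in macrophages. Tnfsf4, the OX40 ligand, was at 19.1 CPM in dendritic cells (7.75%). Tnfsf18, the GITR ligand, was at 2.34 CPM in fibroblasts (1.34%). The IL-10 receptor genes Il10ra and Il10rb were at 66.9 and 105 CPM in macrophages (38.9% and 57% of cells), and Il10ra at 65.4 CPM in T cells.

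In 42 cells of no gate with an Icos read, Gzma was at 29212 CPM and Ctla4 at 385 CPM, against 956 and 6.29 CPM in the other ungated cells. The cells with an Icos read numbered 1, 2, 17 and 22 in the 4 pools, so few were from WT. The other ungated cells numbered 107, 55, 163 and 127. Chosen after the data were seen, the cells with an Icos read are given as values only.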
